A study of Mus musculus with 6 samples.

Results

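Ubiquinone is a lipid that moves electrons through the mitochondrial inner membrane, and the enzymes described here are those that load electrons onto it without passing through complex I. They are the 4 subunits of complex II (succinate dehydrogenase: Sdha, Sdhb, Sdhc and Sdhd) and 6 single enzymes, namely Dhodh, Gpd2, Etfdh, Sqrdl, Prodh and Chdh. All 10 were chosen by gene symbol from the deposited read count table, which lists 23951 genes. Reduced ubiquinone is emptied by complex III, whose Rieske iron-sulfur protein (RISP) is encoded by Uqcrfs1. Each of these enzymes therefore ties a separate metabolic path to complex III: the tricarboxylic acid (TCA) cycle, pyrimidine synthesis, the glycerol phosphate shuttle, fatty acid and amino acid oxidation, sulfide disposal, proline breakdown and choline breakdown.

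RNA was measured in mouse fetal liver haematopoietic stem cells (HSCs), blood-forming progenitors, from a RISP knockout group (KO) and a RISP wild type group (WT), both of strain C57BL/6, with 3 total RNA libraries in each. The labels state neither how the gene was deleted, nor any Cre driver, nor the embryonic age, nor whether the libraries came from separate embryos, so the p-values reflect the spread among these samples, part of which may be technical. Total counts were 12020128 to 14590844 per KO library and 10191354 to 13189329 per WT library. Uqcrfs1 had 60, 51 and 39 counts in KO replicates 1 to 3, against 771, 1320 and 791 counts in WT replicates 1 to 3, so all 6 libraries matched their labels. Levels are given as CPM, counts scaled to a common library size by the TMM method, and changes were tested with edgeR's quasi-likelihood test at a Benjamini-Hochberg adjusted p under 0.05 over all 12204 genes tested. All 12 stem cell marker genes were tested, with a summed level of 2615 to 2713 CPM in KO and 2782 to 3246 CPM in WT, ranges that did not overlap. Of the 12, 2 were higher in KO and 4 lower (edgeR), with Mycn among the higher and Kit and Cd34 among the lower (named after their values were seen). The summed erythroid markers did not overlap between the groups. Of the 8 tested, 3 were lower in KO and 0 higher (edgeR), where 4.99% of all tested genes were called as lower. Epor went the other way, at a mean of 12.2 CPM in KO and 7.69 CPM in WT. The KO and WT ranges overlapped for Epor and for Rhag. The 11 of 12 erythroid markers in the table summed to 38.2 to 71.3 CPM in KO and 218 to 453 CPM in WT, with Hba-a1, Hba-a2 and Hbb-b1 at 0 counts throughout. The deposited RPKM table differs from the count table there: Hba-a2 had 55.0 to 108 RPKM in KO and 657 to 909 RPKM in WT, and Hbb-b1 reached 234 RPKM in KO and 373 RPKM in WT with overlapping ranges, so these globins are missing from the sums. In bulk RNA, fewer cells of a type and less RNA per cell cannot be told apart.

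One enzyme gene, Dhodh, was higher in KO, and the other 9 did not pass the threshold in either direction. That is 1 of 10 called, 1 higher and 0 lower, where 11.4% of all tested genes were called, 6.41% as higher and 4.99% as lower, so the share of called enzymes was near the background. DESeq2 also called 1 higher and 0 lower. At an unadjusted p under 0.05, edgeR had 2 of the 10, Dhodh and Sdhd. Of the 10 log2 fold changes, 5 were positive and 5 negative, and their median was -0.02, as was the median of all tested genes. The CPM ranges of KO and WT did not overlap for 4 of the 10 (Sdha, Sdhb, Sdhc and Dhodh), against 30.2% of all tested genes. All 10 passed the filter on low counts.

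**Figure D1:**
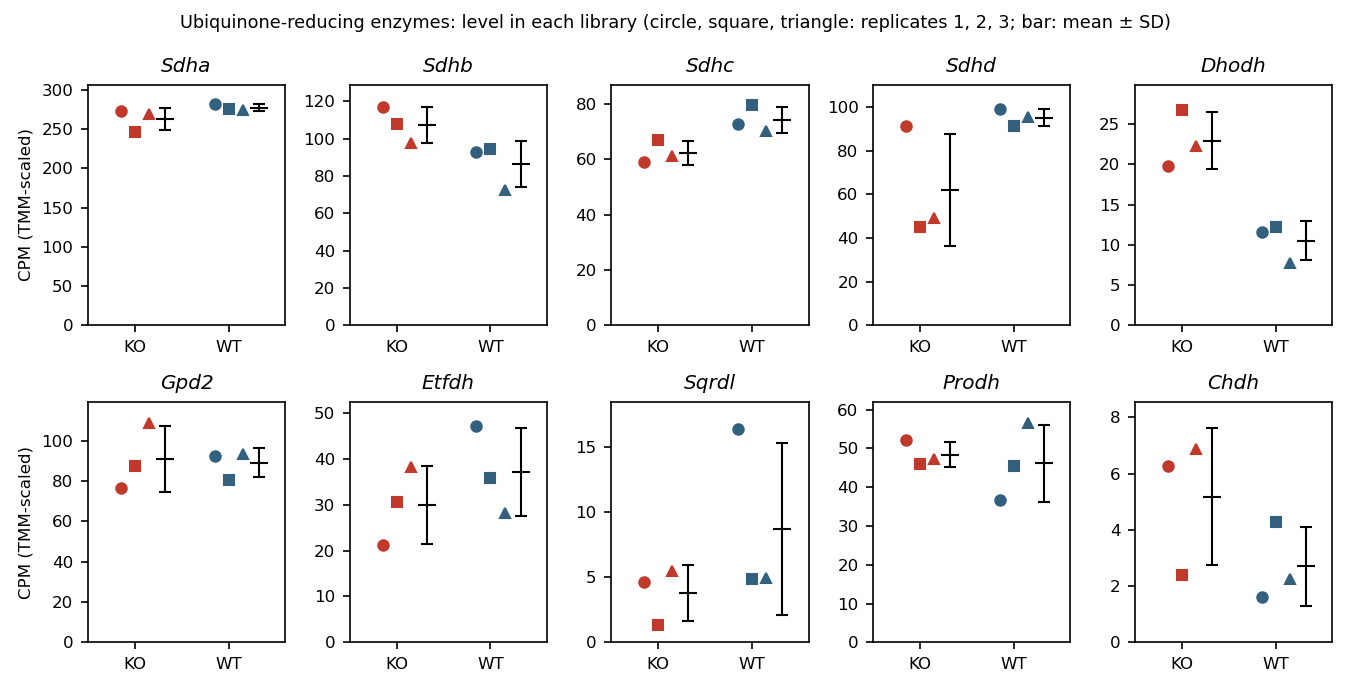
TMM-scaled CPM of each enzyme gene in every library, KO left and WT right, with replicates 1, 2 and 3 as circle, square and triangle and the mean ± SD as a bar. Dhodh shows 2 separate groups, Sdhd is low in KO replicates 2 and 3, and Sqrdl is high in WT replicate 1.

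Dhodh encodes dihydroorotate dehydrogenase, the step of de novo pyrimidine synthesis that sits on the mitochondrial inner membrane and hands its electrons to ubiquinone. It had 274, 402 and 282 counts in KO replicates 1 to 3, against 115, 131 and 100 counts in WT replicates 1 to 3. In CPM these were 19.8, 26.8 and 22.2 in KO and 11.5, 12.2 and 7.71 in WT. Every KO library stood above every WT library, and the lowest KO value was 19.8 CPM against a highest WT value of 12.2 CPM. The mean was 22.9 ± 3.55 CPM in KO and 10.5 ± 2.42 CPM in WT (SD, n = 3 each), a 2.19-fold difference with a 95% interval of 1.33 to 3.59 (log2 fold change 1.13, SE 0.34, edgeR adjusted p = 0.0364). The call rested on nearly the full set of libraries: it held without WT replicate 2 (adjusted p = 0.0475), while leaving out any other single library gave adjusted p of 0.0545 to 0.173, with log2 fold changes of 0.95 to 1.23. On the deposited RPKM values (reads per length of gene and size of library), which limma tested as log2(RPKM + 1), the change was 1.05 with an adjusted p of 0.0532. The erythroid marker sum above moved with the groups, and its part in this difference was not tested.

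The cytosolic partners of DHODH were set beside it. Cad, the multifunctional enzyme that makes dihydroorotate, stood at 354 ± 8.74 CPM in KO and 260 ± 33.1 CPM in WT and was higher in KO by 0.44 on the log2 scale (SE 0.11, edgeR adjusted p = 0.0132). Umps, the enzyme that turns orotate into UMP and was named after its values were seen, measured 116 ± 6.57 CPM in KO and 125 ± 2.86 CPM in WT (SD, n = 3 each), and its change did not pass the threshold. Ctps, the CTP synthetase at the end of the pathway, stood at 87.4 ± 6.97 CPM in KO and 50.7 ± 7.80 CPM in WT and was higher by 0.78 (SE 0.18, adjusted p = 0.00617). Of 8 pyrimidine genes besides Dhodh, 2 were thus higher and 0 lower (edgeR), with a median log2 fold change of 0.04. Cad lost its call without KO replicate 2 (adjusted p = 0.0588), without WT replicate 1 (adjusted p = 0.0677) and with length and GC offsets, where its log2 fold change was 0.26 (adjusted p = 0.176).

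The 3 tested genes whose log2 CPM followed that of Dhodh most closely over the 6 libraries were Chd9, Hnrnph3 and Parvg. Their Pearson correlations with Dhodh were 0.997, 0.996 and 0.996, values that share the split between KO and WT and the library scaling. Chd9, a chromatin remodeller gene, averaged 224 CPM in KO and 166 CPM in WT, and Parvg, a parvin adaptor gene, averaged 208 CPM in KO and 143 CPM in WT. Chd9 and Parvg passed the threshold (edgeR adjusted p = 0.0209 and 0.00794) and Hnrnph3 did not (adjusted p = 0.0549, against 0.0334 in DESeq2). Without KO replicate 2 the adjusted p was 0.127 for Chd9 and 0.0604 for Parvg, and Chd9 kept its call in 3 of the 6 fits that left out a library.

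Complex II oxidises succinate to fumarate in the TCA cycle. Sdha carries the flavin and the substrate site, Sdhb the iron-sulfur clusters, and Sdhc and Sdhd form the membrane anchor where ubiquinone binds. None of the 4 genes passed the threshold, but they did not lean the same way: Sdhb had a positive log2 fold change and the other 3 negative ones. The region before the transcription start of 3 of them is shown so that their promoters can be read beside their levels. The sequences are from RefSeq (GRCm38.p6), the 250 bases before the annotated start, 5′ to 3′ on the gene's strand, and capitals mark matches to the binding motif of NRF1, a transcription factor of many respiratory genes (GCGCA, any base, then GCGC, on either strand).

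Sdha promoter, chr13:74350241-74350490, minus strand: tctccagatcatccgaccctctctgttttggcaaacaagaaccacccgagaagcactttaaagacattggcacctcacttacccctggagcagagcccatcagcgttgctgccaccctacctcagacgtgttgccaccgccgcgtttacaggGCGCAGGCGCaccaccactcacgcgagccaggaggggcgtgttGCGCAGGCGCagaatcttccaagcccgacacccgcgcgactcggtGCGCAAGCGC

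Sdhb promoter, chr4:140961021-140961270, plus strand: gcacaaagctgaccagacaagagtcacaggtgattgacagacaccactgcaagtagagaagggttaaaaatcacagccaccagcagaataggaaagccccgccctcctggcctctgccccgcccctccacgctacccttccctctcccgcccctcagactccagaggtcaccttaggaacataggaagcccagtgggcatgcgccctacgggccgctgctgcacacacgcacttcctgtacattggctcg

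Sdhd promoter, chr9:50603850-50604099, minus strand: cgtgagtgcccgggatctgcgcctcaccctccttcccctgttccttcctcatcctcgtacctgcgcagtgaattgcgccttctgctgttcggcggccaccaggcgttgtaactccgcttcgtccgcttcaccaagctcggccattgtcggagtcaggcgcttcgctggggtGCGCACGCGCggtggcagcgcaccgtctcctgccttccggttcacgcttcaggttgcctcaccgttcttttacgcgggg

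The motif occurred 3 times before Sdha, 1 time before Sdhd and not in this window of Sdhb. Promoters were found for 8 of the 10 genes (not Sdhc and Dhodh), in 11 windows because Gpd2 and Chdh have several starts. The motif was in 3 of the 11 windows (Sdha, Sdhd and Etfdh), against 3.74% of 32851 promoters in the same table. The ATF4 composite element TGATGNAA, searched on both strands, matched in 1 window, that of Sqrdl, against 3.45% of all promoters. The MYC E-box CACGTG matched in 0 of the 11 windows (6.02% of all), and the YY1 motif AANATGGC in 1, of Chdh (3.91% of all). These motifs do not overlap each other in the windows searched. A match is a description of the letters and not a binding site.

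Sdha, the highest of the 10 by deposited RPKM, had 273, 247 and 269 CPM in KO replicates 1 to 3, against 283, 276 and 274 CPM in WT replicates 1 to 3. In CPM the ranges just missed each other, while in deposited RPKM they overlapped (102 to 116 in KO, 109 to 112 in WT). The difference was small: 0.95-fold with a 95% interval of 0.81 to 1.10 (edgeR, adjusted p = 0.704). Its sign turned with length and GC offsets, at a log2 fold change of 0.01. Sdhb had 117, 108 and 97.7 CPM in KO, against 92.7, 94.2 and 72.3 CPM in WT. All 3 KO libraries were above all 3 WT libraries, at 1.25-fold with an interval of 0.99 to 1.56 (adjusted p = 0.215). Sdhc had 58.9, 67.0 and 61.1 CPM in KO, against 72.7, 79.6 and 70.5 CPM in WT. Its KO libraries were all below its WT libraries, at 0.84-fold with an interval of 0.66 to 1.07 (adjusted p = 0.386).

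Of the complex II genes, Sdhd varied most within the KO group. It had 1266, 677 and 624 counts, or 91.3, 45.1 and 49.2 CPM, in KO replicates 1 to 3, against 987, 980 and 1236 counts, or 98.9, 91.2 and 95.3 CPM, in WT replicates 1 to 3. In CPM, KO replicate 1 lay just within the WT range, while KO replicates 2 and 3 lay well below it. In deposited RPKM, KO replicate 1 lay just below that range, at 92.5 against a lowest WT value of 93.1. The mean was 61.9 ± 25.6 CPM in KO and 95.2 ± 3.85 CPM in WT (SD, n = 3 each), 0.65-fold with an interval of 0.47 to 0.90, and edgeR gave an unadjusted p of 0.0119 and an adjusted p of 0.0796. Without KO replicate 1 the log2 fold change was -1.01 (adjusted p = 0.00249), and without KO replicate 2 it was -0.44 (adjusted p = 0.301). The Sdhd call was also reached with the Y-linked level of each library as a covariate (-0.73, adjusted p = 0.0108) and without the low-count filter (-0.62, adjusted p = 0.00788), and with length and GC offsets the value was -0.42 (adjusted p = 0.274).

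**Figure D2:**
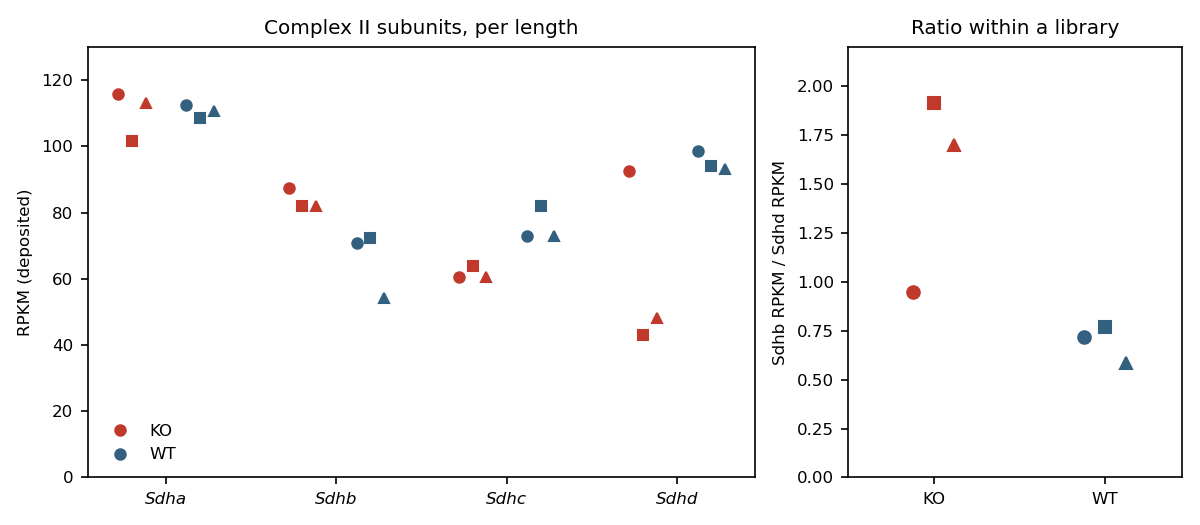
Left, deposited RPKM of the 4 complex II genes in each KO and WT library (circle, square and triangle for replicates 1, 2 and 3). Right, Sdhb RPKM divided by Sdhd RPKM in the same library, which lies between 0.945 and 1.91 in KO and between 0.582 and 0.767 in WT.

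Sdhb and Sdhd, the iron-sulfur subunit and an anchor subunit, were also set against each other within a library. The pair was picked after the values were seen, as the complex II genes with the positive and the most negative change, so a difference in their ratio follows from the choice and is a description without a test. Sdhb RPKM divided by Sdhd RPKM was 0.945, 1.91 and 1.70 in KO replicates 1 to 3, against 0.720, 0.767 and 0.582 in WT replicates 1 to 3. All KO ratios were above all WT ratios, KO replicate 1 by the least. The summed level of the 4 genes was 540, 466 and 477 CPM in KO, against 547, 541 and 512 CPM in WT, so the groups overlapped in the total.

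In the authors' RPKM, the 4 complex II genes led the list in every library, and together they held 84.0 ± 2.99% of the RPKM of all 10 genes in KO and 85.5 ± 1.16% in WT (SD, n = 3 each). Their order differed between the groups. In KO it was Sdha (110 ± 7.53 RPKM), Sdhb (83.8 ± 3.13), Sdhc (61.7 ± 1.93) and Sdhd (61.2 ± 27.2 RPKM), where the ranges of Sdhc and Sdhd overlapped. In WT it was Sdha (111 ± 1.89 RPKM), Sdhd (95.2 ± 2.88), Sdhc (75.9 ± 5.23) and Sdhb (65.8 ± 10.0 RPKM), with no overlap between neighbours. Below them came Gpd2, Prodh and Etfdh, whose ranges overlapped in both groups, and then Dhodh, Sqrdl and Chdh. Dhodh measured 7.25 ± 1.25 RPKM in KO and 2.97 ± 0.54 RPKM in WT, eighth in KO and ninth in WT, where its range overlapped that of Sqrdl. The order rests on the gene lengths behind the authors' RPKM, which the labels do not state. With the longest coding transcript of GENCODE M21 instead, the order was another one. In KO, Sdhb (94.2 CPM per kilobase) then stood above Sdha (90.6), and Prodh (20.3) above Sdhc (19.7). In WT, Sdha (95.7 CPM per kilobase) was followed by Sdhd (77.3), Sdhb (75.7) and Sdhc (23.4), with Prodh at 19.4.

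Sdha and Sdhd each have a neighbour that starts on the opposite strand within 250 bases and passed the filter on low counts. Ccdc127, head to head with Sdha, had 33.4, 29.2 and 41.1 CPM in KO, against 54.2, 51.5 and 67.8 CPM in WT. It was lower in KO, at a log2 fold change of -0.74 (95% interval -1.18 to -0.30, edgeR adjusted p = 0.0259), where the interval of Sdha was -0.30 to 0.14. This call was lost without KO replicate 1, KO replicate 2 or WT replicate 3 (adjusted p = 0.0726, 0.132 and 0.115). Timm8b, a small import chaperone gene head to head with Sdhd, had 17.1, 30.2 and 26.1 CPM in KO, against 29.9, 30.3 and 29.5 CPM in WT. Its lowest library was KO replicate 1, the KO library in which Sdhd was highest, and its change did not pass the threshold (adjusted p = 0.561). In GENCODE M21, neither Ccdc127 nor Timm8b overlaps the enzyme gene it faces. The library kit was stranded, but the labels do not state the strand setting of the counting. Where genes do overlap on opposite strands, as for Etfdh and Chdh below, their reads may therefore have been counted together, which cannot be settled here.

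Of the 4 complex II assembly factor genes in the table, 0 passed in either direction in edgeR, 0 in DESeq2 and 0 at an unadjusted p under 0.05, with a median log2 fold change of -0.14. Those with the smallest p were 1110058L19Rik, at 8.33 ± 1.95 CPM in KO and 13.4 ± 8.39 CPM in WT, and Sdhaf1, which helps insert the iron-sulfur clusters of Sdhb, at 24.2 ± 4.68 CPM in KO and 20.6 ± 4.81 CPM in WT (SD, n = 3 each). Among 14 genes of the TCA steps around succinate, 1 was higher in KO and 0 lower in both edgeR and DESeq2 (median 0.10), and the edgeR count at an unadjusted p under 0.05 was also 1. That edgeR call was lost without KO replicate 1, KO replicate 2 or WT replicate 1. It was also lost with RLE scaling in edgeR in place of TMM, with the replicate block, with length and GC offsets and with limma.

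**Figure D3:**
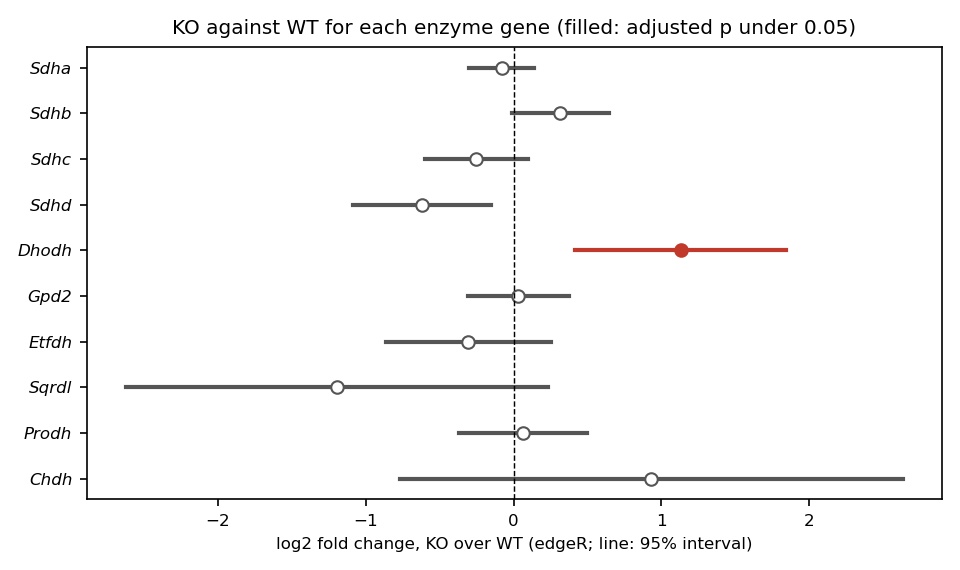
Log2 fold change of KO over WT for each enzyme gene from edgeR, with its 95% interval as a line. Dhodh alone is filled (adjusted p under 0.05), and the intervals of Sqrdl (-2.62 to 0.23) and Chdh (-0.77 to 2.64) are the widest.

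Gpd2, the mitochondrial glycerol-3-phosphate dehydrogenase, brings electrons from cytosolic NADH to ubiquinone through the glycerol phosphate shuttle. It had 76.7, 87.4 and 109 CPM in KO replicates 1 to 3, against 92.6, 80.7 and 93.6 CPM in WT replicates 1 to 3. The groups overlapped, and the difference was 1.02-fold with a 95% interval of 0.81 to 1.29 (edgeR adjusted p = 0.936). In the list of this shuttle and the malate-aspartate shuttle, 0 of 9 genes were higher and 1 was lower, with a median log2 fold change of -0.13. The lower one was Mdh1, cytosolic malate dehydrogenase of the malate-aspartate shuttle, at 118 ± 7.11 CPM in KO and 173 ± 22.7 CPM in WT (SD, n = 3 each). Its log2 fold change was -0.55 (SE 0.13, adjusted p = 0.00998), and the call held whichever library was left out (highest adjusted p = 0.0446) but not with length and GC offsets (-0.38, adjusted p = 0.0846).

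Etfdh encodes the ubiquinone oxidoreductase that collects electrons of fatty acid and amino acid oxidation from the electron transfer flavoprotein. It had 21.3, 30.5 and 38.1 CPM in KO, against 47.2, 35.8 and 28.1 CPM in WT. The ranges overlapped widely, at 0.81-fold with an interval of 0.55 to 1.19 (edgeR adjusted p = 0.527). The gene 4930579G24Rik overlaps 278 bases of its exons on the opposite strand, and had 6.27, 9.79 and 13.6 CPM in KO, against 21.0, 11.7 and 11.9 CPM in WT, so both genes were lowest in KO replicate 1 and highest in WT replicate 1. Upstream of Etfdh, 0 of 16 tested flavoprotein and dehydrogenase genes passed the threshold in edgeR or DESeq2, and 1 had an unadjusted p under 0.05 in edgeR (median log2 fold change 0.02). Acad10, an acyl-CoA dehydrogenase family gene and among the 2 with the smallest p, stood at 13.8 ± 5.98 CPM in KO and 7.43 ± 1.50 CPM in WT (adjusted p = 0.234).

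Prodh, proline dehydrogenase, starts proline breakdown. It had 52.1, 45.9 and 47.2 CPM in KO, against 36.7, 45.4 and 56.4 CPM in WT. The KO values lay inside the WT range, and the difference was 1.05-fold with an interval of 0.77 to 1.41 (edgeR adjusted p = 0.893). In proline synthesis, Aldh18a1 and Pycr1 were higher in KO. Aldh18a1, which makes pyrroline-5-carboxylate from glutamate, measured 224 ± 8.99 CPM in KO and 100 ± 3.02 CPM in WT (SD, n = 3 each), a log2 fold change of 1.16 with an interval of 0.91 to 1.42 (adjusted p = 2.36e-06) that does not meet the Prodh interval of -0.37 to 0.50. Pycr1, the mitochondrial reductase of the last step, measured 9.08 ± 1.57 CPM in KO and 0.961 ± 0.520 CPM in WT and was higher by 3.24 (SE 0.76, adjusted p = 0.00794). In the proline list 2 of 6 tested genes were higher and 0 lower, and Prodh2, a hydroxyproline dehydrogenase gene, had 0 counts in all 6 libraries.

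Sqrdl (Sqor), sulfide:quinone oxidoreductase, passes electrons of hydrogen sulfide to ubiquinone and was a low transcript here. It had 64, 20 and 69 counts in KO replicates 1 to 3, against 163, 52 and 64 counts in WT replicates 1 to 3, or 4.61, 1.33 and 5.44 CPM in KO against 16.3, 4.84 and 4.93 CPM in WT. WT replicate 1 was high and KO replicate 2 low, and the other 4 libraries were close together. The log2 fold change was -1.20 with an interval of -2.62 to 0.23 (edgeR adjusted p = 0.297), and it was -0.37 without WT replicate 1. Among 6 tested sulfide genes, 1 was higher and 0 lower (edgeR). It was Cth, which makes cysteine and can release sulfide, with 177, 410 and 148 counts in KO, against 9, 0 and 0 counts in WT (adjusted p = 0.00193).

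Chdh, choline dehydrogenase, oxidises choline to betaine aldehyde and is best known from liver and kidney. Per length it was the lowest of the 10, with 87, 36 and 87 counts in KO and 16, 46 and 29 counts in WT. KO replicates 1 and 3 were high, while KO replicate 2 lay among the WT libraries. The 1.91-fold difference had an interval of 0.59 to 6.21 (edgeR adjusted p = 0.529), which holds both no change and a several-fold rise. Exons of Cacna1d, which had at most 35 counts in a library, overlap 589 bases of Chdh exons on the opposite strand. The 12 hepatoblast markers, all in the table, summed to 29.1 to 75.9 CPM in KO and 65.7 to 142 CPM in WT, none of them at 0 throughout, and their part in the Chdh values was not tested. In the choline list 0 of 5 tested genes passed in edgeR or DESeq2, and 0 had an unadjusted p under 0.05 in edgeR (median 0.30). Those with the smallest p were Aldh7a1, which oxidises betaine aldehyde, at 69.9 ± 13.4 CPM in KO and 56.8 ± 6.85 CPM in WT (adjusted p = 0.349), and the choline kinase gene Chka, at 28.3 ± 7.17 CPM in KO and 21.1 ± 4.95 CPM in WT (adjusted p = 0.410).

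Ubiquinone itself is built by a set of mitochondrial enzymes. Of 14 genes of its synthesis, 0 were higher and 1 was lower in KO (edgeR, median 0.14). The lower one was Adck3 (also Coq8a), an atypical kinase needed for the synthesis complex, with 8.65, 8.32 and 15.5 CPM in KO replicates 1 to 3, against 22.9, 34.4 and 20.2 CPM in WT replicates 1 to 3. The groups did not overlap, and the log2 fold change was -1.25 (SE 0.35, adjusted p = 0.0242), with the call lost without KO replicate 1, KO replicate 2 or WT replicate 2 (adjusted p = 0.0896, 0.119 and 0.143). Of the 2 other ubiquinone reductases, 0 passed the threshold in edgeR or DESeq2 and 0 had an unadjusted p under 0.05 in edgeR: Nqo1 measured 1.28 ± 0.508 CPM in KO and 3.45 ± 2.36 CPM in WT, and Aifm2 measured 4.74 ± 2.91 CPM in KO and 3.49 ± 3.73 CPM in WT (SD, n = 3 each). Counted once each, 6 of the 83 tested genes of these 10 lists were higher in KO and 2 lower, 9.64% in all beside the 11.4% of all tested genes. DESeq2 gave the same counts as edgeR in each of the 10 lists, and at an unadjusted p under 0.05 edgeR had 9 higher and 4 lower. With limma on log2(RPKM + 1), 3 of these genes were higher and 0 lower, and Adck3, Mdh1, Cad and Pycr1 were among those that did not pass (adjusted p = 0.0940, 0.0549, 0.141 and 0.0532).

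**Figure D4:**
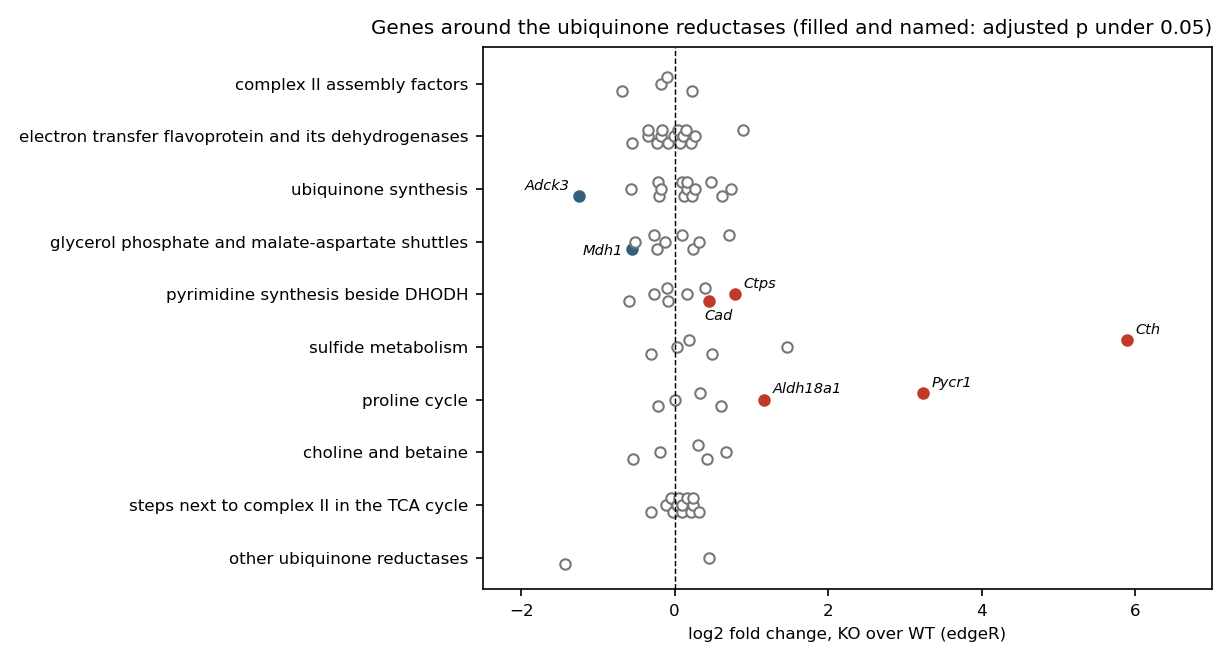
Log2 fold change of KO over WT for 81 of the 83 tested genes of the 10 lists around the ubiquinone reductases, with genes at an adjusted p under 0.05 filled and named (red higher in KO, blue lower). Cth, Pycr1, Aldh18a1, Ctps and Cad lie to the right, and Adck3 and Mdh1 to the left.

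The enzyme genes also differed in how much single libraries weighed on them. Sdha moved least, between -0.11 and -0.04 on the log2 scale when 1 library was left out, and Sdhb stayed between 0.21 and 0.38. Sqrdl ranged from -1.55 to -0.37, and Sdhd from -1.01 to -0.44.

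**Figure D5:**
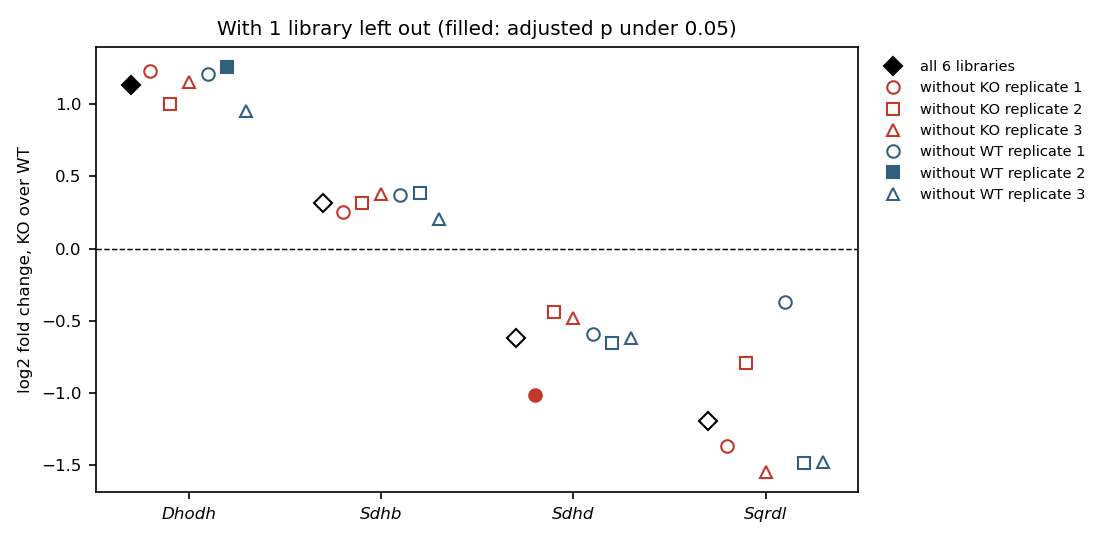
Log2 fold change of KO over WT for Dhodh, Sdhb, Sdhd and Sqrdl with all 6 libraries (diamond) and with 1 library left out (red, a KO library; blue, a WT library), filled where the adjusted p is under 0.05. Dhodh keeps a value of 0.95 or more throughout, and Sqrdl is nearest to 0 without WT replicate 1.

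Summed markers of several other cell types moved with the groups beside all of these results, though the macrophage and lymphoid sums overlapped. Granulocyte markers (9 of 9 in the table) summed to 226 to 261 CPM in KO and 401 to 556 CPM in WT. Mpo alone gave 140 to 171 CPM of that sum in KO and 213 to 274 CPM in WT. The ranges of Elane, Ctsg, S100a9, Ltf and Camp overlapped. Megakaryocyte markers (7 of 7) summed to 276 to 304 CPM in KO and 417 to 478 CPM in WT. Mast cell and basophil markers (7 of 7, Fcer1a at 0) summed to 11.3 to 50.7 CPM in KO and 2.10 to 7.25 CPM in WT. Endothelial markers (7 of 7) summed to 145 to 194 CPM in KO and 217 to 1018 CPM in WT, macrophage markers (11 of 12) to 24.8 to 64.0 CPM in KO and 63.0 to 932 CPM in WT, and lymphoid markers (7 of 7, Cd3e at 0) to 0 to 1.86 CPM in KO and 0.902 to 9.12 CPM in WT. WT replicate 3 stood apart in the endothelial and macrophage sums, at 1018 and 932 CPM, where the other WT libraries had at most 383 and 161 CPM. As single genes (edgeR), 1 of 9 granulocyte, 4 of 7 megakaryocyte and 1 of 7 endothelial markers were lower in KO and 0 higher. Of 3 tested mast cell and basophil markers 1 was higher and 0 lower, and 0 of 10 tested macrophage markers passed. Among all tested genes 11.4% were called. Emcn (23.9 CPM in KO, 20.1 in WT) and Mcpt8 (0.192 and 0.422) went against their sums, with overlapping ranges. The part of these lists in the differences above was not tested.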

How the data were processed

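Total RNA libraries were prepared, per the labels, with a stranded low-input kit (SMARTer Pico) and read on an Illumina NextSeq500. The authors deposited a table of raw read counts and a table of RPKM values (scaled by gene length and library size), with 1 column per library. Per the submitters' processing notes, TopHat, Cufflinks and the mm9 build were used. Their versions, the read counter, annotation and strand setting were not stated. The counts were tested in edgeR 4.0.16 under R 4.3.3, after filterByExpr and TMM scaling, by a robust quasi-likelihood F test with no term but the group. Benjamini-Hochberg adjustment ran over 12204 genes with a threshold of 0.05. The code was tested on simulated data. The SE of a log2 fold change is its size divided by the square root of F. RPKM values served for levels between genes and in limma 3.58.1. Alternatives included DESeq2 1.42.0, RLE scaling in edgeR in place of TMM, and no filter. Others were offsets for length and GC (from GENCODE M21 for 99.5% of genes tested), a Y-linked covariate and each library left out. Libraries of a group differed by a chi-square of 21.7 to 43.1 per degree of freedom, and each was treated as 1 replicate. This spread does not show that they came from separate embryos, which the labels do not state. Promoters came from RefSeq (GRCm38.p6) and gene overlaps from GENCODE M21. Named genes were the 10 members, every called gene of 10 pathway lists (in a list with none, the 2 with the smallest p) and the 3 genes most like a called member. Values of 2 of these named genes are not reported here. Umps, Ccdc127 and Timm8b were added after values were seen. Members and lists were chosen with earlier results of these data known. Counting limits ignore PCR duplication, as the protocol names no molecular identifiers.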

Additional observations from a re-analysis of the deposited data

How the results depend on the processing

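Of the 10 enzyme genes, 1 (Dhodh) passed with all libraries, and 0 to 1 passed when a library was left out. Without WT replicate 2 it was Dhodh, higher in KO, and without KO replicate 1 it was Sdhd, lower in KO. The count was 0 with limma on log2(RPKM + 1) or log2(RPKM + 0.1), 2 without the low-count filter, 2 with the Y-linked covariate and 2 with the replicate block, the second gene being Sdhd each time. Over all tested genes, replicate numbers showed no pairing: same-numbered KO and WT libraries had correlations of 0.02, 0.01 and -0.00 of their deviations from the group means. Such values cannot exclude a pairing that touches few genes. With the block 1341 genes passed in place of 1391, and Sdhd stood at -0.69 (adjusted p = 0.0253). Sdhd was -0.62 without the filter, -0.73 with the covariate and -1.01 to -0.44 with a library left out. Dhodh was 1.05 and 1.26 with limma at the pseudocounts of 1 and 0.1 (adjusted p = 0.0532 and 0.0535) and 0.95 to 1.26 with a library left out, and the cause was not tested. Some values turned sign. Sdha was 0.0105 and Timm8b 0.0218 with length and GC offsets, and Umps 0.0173 and 0.0177 at the 2 RPKM pseudocounts. With a library left out Gpd2 ranged from -0.12 (without KO replicate 3) and -0.03 (without WT replicate 2) to 0.14. Prodh then ranged from -0.075 to 0.24 and Aifm2 from -0.086 to 1.72. Not all of these were near 0 with all libraries, where Timm8b was -0.29 and Aifm2 0.45. Across all genes 720 to 1224 passed with a library left out, the lowest being 720 without KO replicate 2 and then 840 without the third KO library, and 503 and 492 passed with limma at the pseudocounts of 1 and 0.1. Of the pathway genes 8 passed, 5 to 9 with a library left out, 3 at either RPKM pseudocount and 5 with length and GC offsets. Sqrdl and Chdh had the fewest counts of the 10 genes and the widest 95% intervals, and the part of depth in those widths was not tested.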
